A study of Homo sapiens with 13 samples.

Results

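Small nucleolar RNAs (snoRNAs), small Cajal body RNAs (scaRNAs) and spliceosomal small nuclear RNAs (snRNAs) were followed in MDA-MB-231 cells treated with the mTOR kinase inhibitor INK128. The genes were taken by name, as every symbol that starts with SNORD, SNORA, SCARNA or RNU in the INK128 gene table. This gave 260 genes of 13121 distinct symbols, namely 134 SNORD, 91 SNORA, 24 SCARNA and 11 RNU genes. The experiment had 4 libraries, 1 of each kind. They were ribosome footprints (RF, the fragments left by RNase I in a ribosome pellet) and total RNA from cells given DMSO vehicle for 2 h, and the same from cells given 200 nM INK128 for 2 h. All were from passage 3 of this triple-negative breast carcinoma line, and nothing in the labels gives a second culture for any group. With 1 library per group no difference below has a replicate check, so none has a p-value, and each is a description of these libraries.

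SNORD genes encode C/D box snoRNAs, which guide 2′-O-methylation of ribosomal RNA by the methyltransferase fibrillarin. SNORA genes encode H/ACA box snoRNAs, which guide pseudouridylation by dyskerin, and SCARNA genes encode related guides that modify snRNAs in Cajal bodies. RNU genes encode snRNAs, the RNA core of the spliceosome, or are pseudogene copies of them. Most human snoRNAs are cut out of introns of other genes, and many of those hosts make ribosomal proteins or belong to the mRNAs with a 5′ terminal oligopyrimidine tract whose translation mTOR drives. These RNAs are not translated, so a fragment of one in an RF library is not a measure of translation.

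The sequences of 8 of these RNAs are printed because the results turn on them. SNORD31, SNORD48 and SNORA4 had the highest RF values relative to total RNA among snoRNAs and SNORD98 the lowest. SNORD2 and SNORA63 come from the same host gene as SNORA4, and RNU11 and RNU12 held the most reads in the DMSO RF library. They were read from GRCh37, the build of the table (hg19), on the strand of the RNA, 5′ to 3′. Capitals mark a C box (TGATGA in the first 15 bases) and a D box (CTGA in the last 12) in SNORD genes, ACA in the last 8 bases of SNORA genes, and an Sm site (ATTTTTG or ATTTTTTG anywhere) in RNU genes.

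SNORD31, minus strand, chr11:62620798-62620865: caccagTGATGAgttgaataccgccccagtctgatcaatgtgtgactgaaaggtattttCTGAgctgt
SNORD48, plus strand, chr6:31803040-31803103: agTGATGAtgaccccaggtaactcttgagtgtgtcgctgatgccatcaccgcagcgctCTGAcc
SNORD98, plus strand, chr10:70514929-70514995: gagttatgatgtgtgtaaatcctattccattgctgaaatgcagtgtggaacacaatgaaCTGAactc
SNORD2, plus strand, chr3:186502585-186502654: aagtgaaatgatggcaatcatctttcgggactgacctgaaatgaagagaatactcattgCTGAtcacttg
SNORA4, plus strand, chr3:186505402-186505538: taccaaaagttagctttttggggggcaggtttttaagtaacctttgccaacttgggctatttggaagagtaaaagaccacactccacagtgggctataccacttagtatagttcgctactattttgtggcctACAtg
SNORA63, plus strand, chr3:186505088-186505222: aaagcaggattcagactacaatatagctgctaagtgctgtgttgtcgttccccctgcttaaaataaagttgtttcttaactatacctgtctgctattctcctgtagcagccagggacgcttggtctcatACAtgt
RNU11, plus strand, chr1:28975112-28975246: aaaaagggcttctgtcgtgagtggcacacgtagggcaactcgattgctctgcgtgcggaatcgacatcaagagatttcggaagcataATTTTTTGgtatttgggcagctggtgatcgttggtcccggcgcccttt
RNU12, plus strand, chr22:43011251-43011399: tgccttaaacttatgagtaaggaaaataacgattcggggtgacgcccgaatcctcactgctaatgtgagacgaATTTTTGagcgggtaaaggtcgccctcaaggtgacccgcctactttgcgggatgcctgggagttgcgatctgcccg

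The letters of the boxes followed the class names. CTGA was present in the last 12 bases of 103 of 132 SNORD genes (78.0%) and of 3 of 91 SNORA genes (3.30%), on the strand of the RNA only. TGATGA was present in the first 15 bases of 67 SNORD genes (50.8%) and of 1 SNORA gene. ACA was present in the last 8 bases of 85 SNORA genes (93.4%), of 13 SNORD genes (9.85%) and of 15 of 23 SCARNA genes, a class in which 10 also had CTGA. An Sm site was present in 3 of the 4 RNU genes with an RNA-sized locus, in 2 SNORD genes and in 1 SNORA gene. SNORD genes with both boxes had a median RF change of 0.82 on the log2 scale and those without both had 0.81. Their median log2 RF to total RNA ratios with DMSO were -3.27 and -4.05.

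Every gene of the table, the 260 included, was above 0 FPKM (fragments scaled to the length of the RNA and to the mapped fragments of the library) in all 4 libraries, because the table lists no other gene. What is listed is therefore a selected set. The genes of the major spliceosomal snRNAs U1, U2 and U4 were not listed, and neither was any of the imprinted SNORD genes of the chromosome 15 and 14 clusters in the list fixed for them (0 listed). Of 15 snoRNA genes with a known part in pre-rRNA cleavage, only SNORD22 was listed. The RNU genes listed were the 4 RNAs particular to the minor spliceosome (RNU11, RNU12, RNU4ATAC and RNU6ATAC), 3 variants of U5 and 4 pseudogene copies of U6, whose symbols end in P.

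Most of these genes were listed with a locus of the size of the RNA. The locus given was that of the small RNA alone, under 500 nt, for 251 genes, and for the other 9 it spanned a far wider region (RNU5D-1, RNU5E-1, RNU5F-1, the 4 RNU6 copies, SNORD62B and SNORD103B). SNORA59A and SNORA59B have identical sequences and had identical values in every library, for example 34.6 FPKM each in total RNA with DMSO. A run of 30 identical bases was shared by 12 of the 250 genes whose strand could be assigned, in 6 pairs, so reads of those 12 could be split between copies. Copies elsewhere in the genome were not searched for. The status field read LOWDATA for 7 of the 260.

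The markers of the line were checked. VIM, CD44, EGFR, CAV1 and AXL, which mark mesenchymal breast cancer cells, were at 1852, 263, 49.5, 240 and 156 FPKM in RF with DMSO. The epithelial cadherin CDH1 was at 0.17 FPKM in that library, and the hormone receptor genes ESR1 and PGR were not listed. ERBB2 and EPCAM, on the list of genes that should be low, were not low in RF, at 6.77 and 13.3 FPKM with INK128 beside a median of 6.52 over all genes. In total RNA with INK128 they were at 0.37 and 0.16 FPKM beside a median of 0.22.

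The FPKM scale gave the shortest RNAs a large and measurable weight. The deposited values were reproduced as whole reads divided by an effective length that assumes fragments of 200 nt on average with an SD of 80 nt. Such a length makes 1 read in an RNA of 76 nt, the SNORD median, worth 13.9 FPKM in RF with DMSO, and 1 read in an RNA of 134 nt, the SNORA median, worth 1.95 FPKM. With this formula 131 of 143 values below 200 reads (91.6%) came out whole within 0.03 of a read in RF with DMSO, 110 of 120 in RF with INK128, 9 of 9 in total RNA with DMSO and 11 of 11 in total RNA with INK128. That tolerance spans 6% of the distance between whole numbers. The formula is inferred from the values, since the program is not named in the sources used here.

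The recovered reads give the depth behind each value. The 251 RNAs summed to 364407 reads in RF with DMSO, 475478 in RF with INK128, 949474 in total RNA with DMSO and 988052 in total RNA with INK128. The library totals that the same formula implies were about 68040000, 67390000, 99130000 and 93980000 reads in that order, so these RNAs took 0.536%, 0.706%, 0.958% and 1.05% of the reads. Of the summed FPKM the same 251 took 42.3%, 59.4%, 70.3% and 69.8%, and all 260 genes took 44.6%, 61.0%, 85.8% and 86.9%. A single RNA had a median of 144 reads in RF with DMSO and 2364 in total RNA with DMSO, and 37 of the 251 had under 20 reads in that RF library against 2 in that total RNA library.

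**Figure D1:**
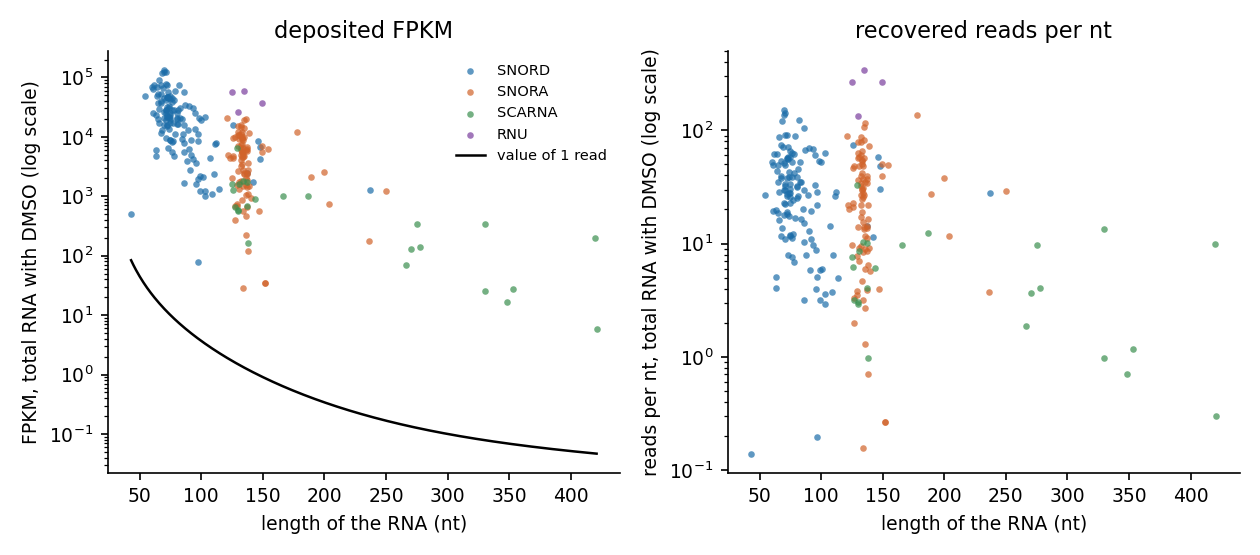
Left, FPKM in total RNA with DMSO (log scale) against RNA length in nt for the 251 RNAs with a locus of their own, coloured by class, with the FPKM value of 1 read as a line. Right, the same RNAs as recovered reads per nt (log scale), where the SNORD median of 28.5 and the SNORA median of 24.8 lie close together.

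In reads per nt, C/D and H/ACA snoRNAs were at like levels in total RNA. Median FPKM in total RNA with DMSO was 19908 for SNORD and 4430 for SNORA genes. In reads per nt the medians were 28.5 and 24.8, and in reads per RNA they were 2295 and 3298. SCARNA genes were lower, at 5.09 reads per nt, and the 4 minor spliceosome snRNAs far higher, at 270. The rankings by FPKM below therefore favour shorter RNAs, and reads are given beside many of them.

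By FPKM the most abundant SNORD genes were SNORD2, SNORD49A, SNORD30, SNORD31 and SNORD34, all guides of rRNA methylation cut from introns. SNORD2, in an intron of EIF4A2, was at 133672 FPKM with DMSO and 132052 with INK128 (10492 and 9827 reads). SNORD49A was at 121559 and 137495 FPKM, SNORD30 at 121474 and 136648. The largest difference among the 5 was that of SNORD34, at -0.20 on the log2 scale.

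By FPKM, the SNORA genes at the top were SNORA65, SNORA32, SNORA63, SNORA44 and SNORA3. By reads, SNORA81 was above SNORA65, with 24095 reads with DMSO. SNORA65, in RPL12, was at 20188 FPKM with DMSO and 23321 with INK128 (15894 and 17407 reads). SNORA63, in EIF4A2, was at 18923 and 20249 FPKM. SNORA32 was the only one of the 5 that was lower with INK128, at 20529 and 19316 FPKM. The SCARNA genes at the top by FPKM, SCARNA4, SCARNA18, SCARNA11, SCARNA8 and SCARNA22, ran from 6417 FPKM for SCARNA4 to 1626 for SCARNA22 with DMSO, and differed between treatments by 0.04 to 0.13 on the log2 scale. By reads SCARNA10, at 346 FPKM, was above SCARNA4, with 4399 and 4207 reads with DMSO.

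Among the snRNAs, the 4 of the minor spliceosome, which removes a rare class of introns, were all slightly higher in total RNA with INK128. RNU11 (U11) was at 60072 and 68022 FPKM (46101 and 49491 reads), and it was the most-read of the 251 RNAs. RNU12 (U12) was at 37173 and 42163 FPKM, RNU6ATAC (U6atac) at 57383 and 63235, and RNU4ATAC (U4atac) at 25811 and 28215. Their log2 changes ran from 0.13 to 0.18.

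In total RNA the small RNAs stayed near their DMSO values, while the values of other genes were lower. The measure is log2((INK128 FPKM + 1)/(DMSO FPKM + 1)) among genes with a mean of at least 1 FPKM in both libraries, which 3172 genes passed, all 260 small RNA genes among them. The median change was 0.14 for SNORD, 0.15 for SNORA, 0.10 for SCARNA and 0.16 for RNU genes. Over all 3172 genes it was -0.73, and without the pseudocount it was -1.15, with 2519 of the genes outside the 260 at a mean of 1 to 10 FPKM. The median of the small RNAs was 0.14 either way. The scale of this comparison is thus shifted, and relative to the median of all genes the small RNAs were 0.87 higher on the log2 scale, or 1.29 without the pseudocount. Of the 260, 257 lay above the all-gene median.

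Past 2-fold there was 1 small RNA gene in each direction, where over all genes tested 0.126% were 2-fold or more higher and 15.2% were 2-fold or more lower. Centred on the median of all genes, 38 of the 260 were 2-fold or more higher and 0 lower, where 2.43% and 0.0315% of all genes were. These counts depend on the pseudocount. Without it 71.5% of all genes were 2-fold or more lower before centring. Once centred without it, 228 of the 260 were 2-fold or more higher and 0 lower, where 10.9% and 0.189% of all genes were. The gene that was higher was SNORD88B, at 77.6 and 172 FPKM (19 and 40 reads), and the one that was lower was RNU6-71P, at 189 and 82.2 FPKM. In all, 199 of the 260 were higher and 61 lower. More small RNA and less of everything else cannot be told apart on a scale relative to each library, and neither can fewer cells and less RNA per cell. The labels call these libraries total RNA, the methods of the study describe a poly(A) selection for its mRNA libraries, and which applies here was not tested.

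Other groups of genes also had medians above the all-gene median of -0.73. The 79 microRNA genes that passed had a median change of 0.21 and the 48 replication-dependent histone genes -0.10. Of the other small RNAs looked for, RMRP (0.12), RPPH1 (0.10), TERC (0.06) and VTRNA1-1 (0.12) were near 0, while RNY4, at -0.98, was below the all-gene median. Among the 32 other genes of 100 FPKM or more that are neither microRNA nor histone genes, the median was -0.77.

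The next largest changes in total RNA were modest. After SNORD88B the largest increases were SNORD47 (0.70), RNU5E-1 (0.58), SNORD58C (0.53) and SNORD78 (0.49). The locus of RNU5E-1 spans that of RNU5D-1, another U5 variant, which was at 0.02, and the 2 summed were at 0.33. SNORD47 and SNORD78, both from introns of GAS5, a non-coding host of 10 listed snoRNAs, had 926 and 1423 reads, and 1453 and 1935 reads. After RNU6-71P the largest falls were SCARNA7 (323 and 151 reads), SNORD89 (569 and 310 reads), SNORA70B (21 and 13 reads) and SNORD50A (884 and 585 reads). Centred on the median of all genes, SCARNA7 was at -0.24, SNORD89 at -0.07, SNORA70B at 0.14 and SNORD50A at 0.21. Of 251 RNAs with reads, 156 had a 95% counting interval of the fold that lay above 0 and 36 one below 0, and for none did the interval lie past 2-fold. These are exact binomial intervals that cover counting error only, since reads without molecular identifiers are not independent molecules and no second library shows the spread between cultures.

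**Figure D2:**
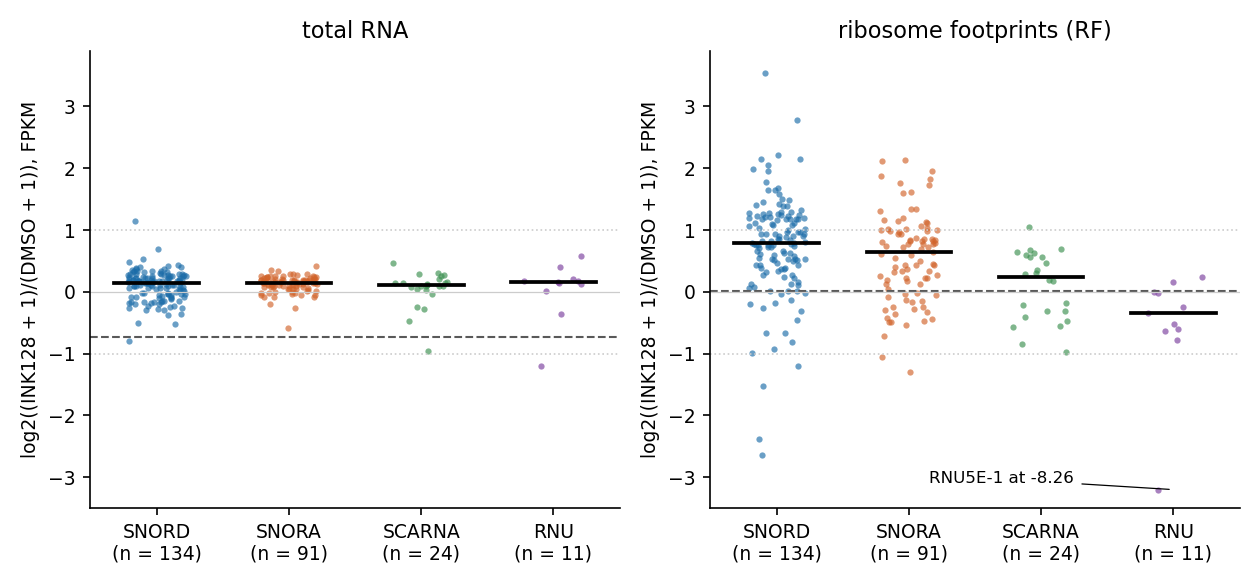
Log2 change with INK128 (FPKM + 1) of each of the 260 genes in total RNA (left) and RF (right), by class, with the class median as a bar, the median of all genes as a dashed line and 2-fold as dotted lines. In total RNA all 4 class medians lie between 0.10 and 0.16, above the all-gene line at -0.73, whereas in RF they run from 0.80 for SNORD to -0.34 for RNU around an all-gene median of 0.02.

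In the RF libraries fragments of most snoRNAs were more frequent with INK128. As deposited, 2 of the 11 RNU genes were higher and 9 lower, where 45.9% of all genes were lower. Among 10843 genes with a mean of at least 1 FPKM the median change was 0.80 for SNORD, 0.64 for SNORA, 0.24 for SCARNA and -0.34 for RNU genes, against 0.02 for all genes. Of the 260, 73 were 2-fold or more higher, where 1.05% of all genes were, and they were 50 SNORD, 22 SNORA and 1 SCARNA gene. Of the 260, 7 were 2-fold or more lower, where 1.37% of all genes were. In either direction the count was 202 higher and 58 lower.

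Over the 251 RNAs of all classes the median RF change was above 0 in each of 5 ranges of depth. It was 0.74 for the 28 RNAs with under 20 reads in the mean of both RF libraries, 0.53 for 69 with 20 to 100 reads, 0.63 for 65 with 100 to 500, 0.82 for 60 with 500 to 2000 and 0.75 for 29 with 2000 or more. By class, the median was 0.84 for 55 SNORD RNAs with under 100 such reads and 0.79 for 77 with 100 or more, and 0.27 for 32 SNORA RNAs and 0.78 for 59. Of the 6 RNAs with reads that were 2-fold or more lower, 5 were among the 28 with under 20 reads. For 32 RNAs the counting interval lay wholly above 2-fold, and for none wholly below.

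**Figure D3:**
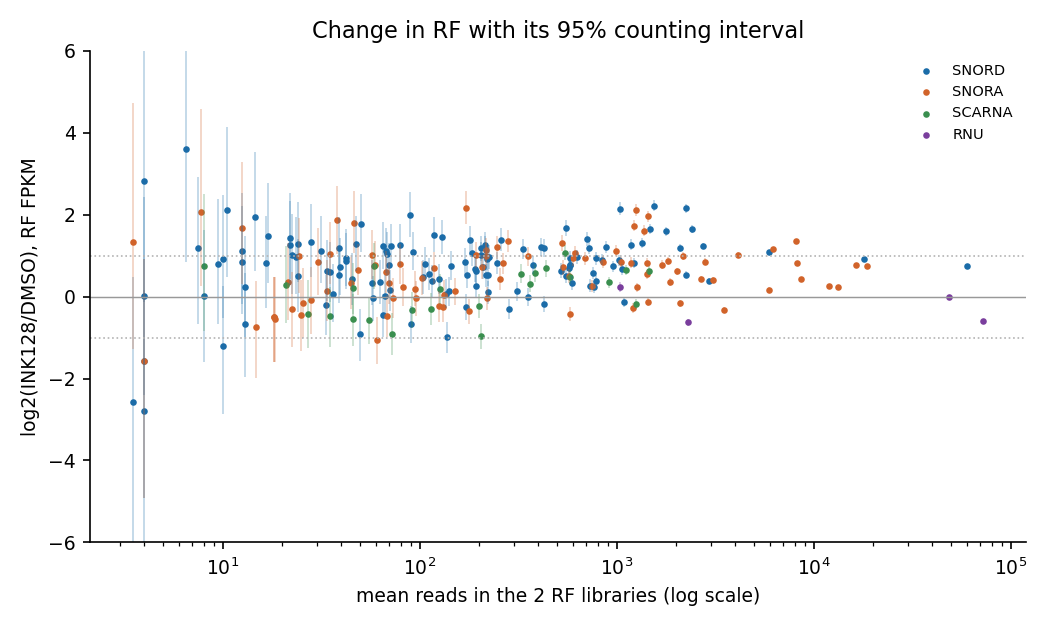
Log2 ratio of RF FPKM, INK128 over DMSO, against the mean reads of the RNA in both RF libraries (log scale) for 251 RNAs, coloured by class, with the 95% counting interval as a vertical line (clipped at the axis limits). The intervals narrow to the right, where SNORD and SNORA points stay mostly between 0 and 2 and the 2 most-read RNU points, RNU11 and RNU12, lie at or below 0 (at 0.23 and -0.36 when scaled to the genes outside the 260).

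The largest rises by value mixed very few reads with well-read RNAs. SNORD98, in an intron of CCAR1, rose from 21.7 to 263 FPKM, which was 1 read and 12 reads, with a counting interval of 0.84 to 9.02 on the log2 scale. SNORD42A, in RPL23A, went from 1 read to 7, and its interval of -0.14 to 8.32 includes 0. The other 3 of the top 5 were deep.

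SNORD17, a long C/D snoRNA in SNX5, rose from 158 to 739 FPKM in RF (552 and 2551 reads), a change of 2.21 with a counting interval of 2.09 to 2.36. SNORD12B, in ZFAS1, rose from 4031 to 17924 FPKM (833 and 3669 reads), a change of 2.15. SNORD5, in TAF1D, rose from 6160 to 27300 FPKM (385 and 1690 reads), also 2.15. In total RNA the same 3 changed by 0.20, 0.27 and 0.37, so their RF rise was far larger than their change in total RNA.

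The largest falls rested on almost no reads or on a split locus. RNU5E-1 went from 313 to 0.02 FPKM in RF, but its locus is shared with RNU5D-1. The 2 summed were at 73369 and 57706 FPKM, a change of -0.35, and at 485811 and 608774 FPKM in total RNA. SNORD91A had 7 reads and then 1, SNORD88B 6 and 1, SNORD91B 6 and 2, and SNORA12 6 and 2, and every one of these 4 intervals includes 0. SNORD88B, the largest rise in total RNA, was thus among the falls in RF, with 40 reads or fewer in any library.

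Some falls were well read. SNORD22 (U22), which is needed for 18S rRNA maturation, had 183 and 91 RF reads, a change of -0.99 with a counting interval of -1.37 to -0.62, and 9441 and 8977 reads in total RNA. SCARNA22 had 271 and 137 RF reads, a change of -0.97. SNORA15, chosen after its values were seen, had 82 and 39 reads, a change of -1.05 with an interval of -1.65 to -0.49. In all, 17 of the 251 RNAs had an interval wholly below 0 and 161 one wholly above.

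The minor spliceosome snRNAs did not move together in RF. RNU12 went from 119072 to 78160 FPKM in RF (88246 and 57377 reads), a change of -0.61, and RNU4ATAC from 6084 to 3931 FPKM (2812 and 1800 reads), a change of -0.63. RNU11 was at 93152 and 92244 FPKM (49064 and 48126 reads), a change of -0.01 with an interval of -0.03 to 0.00. RNU6ATAC was at 0.24 (959 and 1120 reads). Of the other RNU genes, RNU5D-1 (-0.34), RNU5F-1 (-0.25), RNU6-28P (-0.53), RNU6-66P (0.00) and RNU6-71P (-0.78) were level or lower and RNU6-19P was at 0.16. The direction of several depends on the scaling. Scaled to the summed FPKM of all genes outside the 260, which moved the median of all genes from 0.02 to 0.23, RNU11 was at 0.23, RNU6-66P at 0.24 and RNU5F-1 at 0.00. The largest value in that sum was the Y RNA RNY5, at 1820000 FPKM in RF with DMSO and 972040 with INK128. The scaling was not recomputed without it. On that scale RNU12 was at -0.36, RNU4ATAC at -0.38 and RNU6ATAC at 0.49.

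A few RNAs held most of the RF reads. In RF with DMSO, RNU12 held 24.2% of the reads of the 251 RNAs, RNU12 and RNU11 together 37.7%, and the top 10 held 70.8%. In total RNA with DMSO the top 10 held 23.7%. With INK128 the most-read RNA in RF was SNORD31, with 15.9%. Summed over the class, RF reads changed by 0.87 for SNORD, 0.63 for SNORA, 0.36 for SCARNA and -0.37 for RNU on the log2 scale, each library scaled by its own FPKM denominator.

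The RF value relative to total RNA showed how unevenly these RNAs entered the RF libraries. On the log2 scale with 1 FPKM added, the median RF to total RNA ratio with DMSO was -3.58 for SNORD, -2.86 for SNORA, -1.49 for SCARNA and -1.73 for RNU genes, against 2.65 for all 9830 genes that passed. RF exceeded total RNA for 25 of the 260 small RNA genes, where it did so for 96.2% of all genes. Within a gene the effective length cancels from this ratio. Even so it differed with length, with a median of -3.64 for 114 RNAs under 100 nt and -2.57 for 137 from 100 nt, and the median RF change was 0.85 and 0.47 in these groups. What part length had in the difference between SNORD and SNORA genes was not tested. Whether a fragment in the RF library came from a ribosome or from another particle that enters the pellet was not tested, since the table holds 1 value per gene and no positions.

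Among the 251 RNAs with a locus of their own the ratio ran over more than 3 orders of magnitude. Of the genes with wide loci, RNU6-71P was at 33.3 and RNU5E-1 at 0.0013. SNORD31 was at 930469 FPKM in RF and 116434 in total RNA with DMSO (45210 and 8243 reads), a linear ratio of 7.99. SNORD48 was at a ratio of 4.62 (12611 and 3979 reads), SNORA4 at 3.76 (12097 and 4692 reads), SNORA24 at 3.26 and RNU12 at 3.20. At the other end SNORD98 had 1 RF read for 780 in total RNA, a ratio of 0.0019. SNORD34, among the 5 SNORD genes highest by FPKM in total RNA, had 29 RF reads for 5819, a ratio of 0.0073. RNAs of like level in total RNA thus had RF reads that differed by orders of magnitude.

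Across the 251 RNAs the log2 reads in the 2 DMSO libraries had a Pearson r of 0.58 and a Spearman rho of 0.57. Between the 2 RF libraries r was 0.96, and between the 2 total RNA libraries 0.99. These are correlations across RNAs that share libraries and read length, and they are given as a description. The order of RNAs in RF was thus nearly the same with and without INK128.

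**Figure D4:**
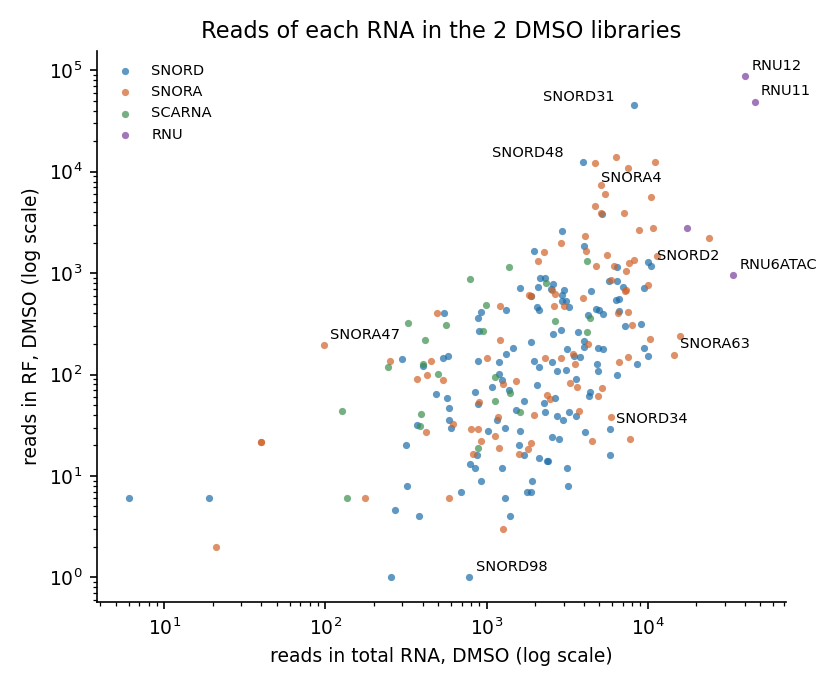
Recovered reads of each of 251 RNAs in RF (vertical) against total RNA (horizontal) with DMSO, both on log scales and coloured by class, with 11 RNAs named. SNORD31 (45210 RF reads), SNORD48 (12611) and SNORA4 (12097) lie far above, and SNORD34 (29 RF reads) and SNORA63 (157) far below, most RNAs of like total RNA reads.

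The snoRNAs cut from one host also differed widely in this ratio. In SNHG1, a non-coding gene with 8 listed SNORD RNAs in its introns, SNORD31 had a ratio of 7.99 with DMSO while its neighbours SNORD30 and SNORD29 had 0.11 and 0.019. The highest and lowest ratios of this host differed 411-fold, and total RNA reads only ran from 1699 to 9535. In EIF4A2, which encodes a paralog of the helicase eIF4A1, SNORA4 had a ratio of 3.76, SNORD2 of 0.16, SNORA81 of 0.13 and SNORA63 of 0.016, a 238-fold range. SNORA4 and SNORA63 are of nearly one length (137 and 135 nt), base composition (42.3% and 43.0% GC) and position.

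Among the 10 RNAs of GAS5 the ratio ran from 0.0055 for SNORD75 to 1.46 for SNORD81. SNORD81 is listed with a locus of 43 nt and had 6 reads in each DMSO library, so that value is thin. Next was SNORD47, at 0.65 with 412 RF reads, and SNORD79, at 0.61 with 894. The 8 RNAs of TAF1D, a protein-coding host, ran from 0.021 for SNORA25 to 0.79 for SNORA18, a 37.9-fold range. Neither length nor GC content followed the ratio closely across RNAs, with a Spearman rho of 0.23 for length (251 RNAs) and 0.07 for GC (250 RNAs), given as descriptions.

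With INK128 the ratio was higher for 196 of the 260 RNAs, namely 112 SNORD, 66 SNORA, 15 SCARNA and 3 RNU genes. The same count was not made over all genes, so 196 cannot be read as particular to these RNAs. The class median of the ratio went from -3.58 to -3.28 for SNORD and from -2.86 to -2.36 for SNORA. For RNU it went from -1.73 to -2.09, and for SCARNA from -1.49 to -1.98 although 15 of the 24 ratios were higher. Over all genes the median ratio went from 2.65 to 3.05, so the shift of total RNA values enters this comparison for other genes. SNORD31 went from 7.99 to 13.7, SNORD2 from 0.16 to 0.52 and SNORD79 from 0.61 to 2.20, whereas SNORD22 went from 0.028 to 0.014 and RNU12 from 3.20 to 1.85.

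**Figure D5:**
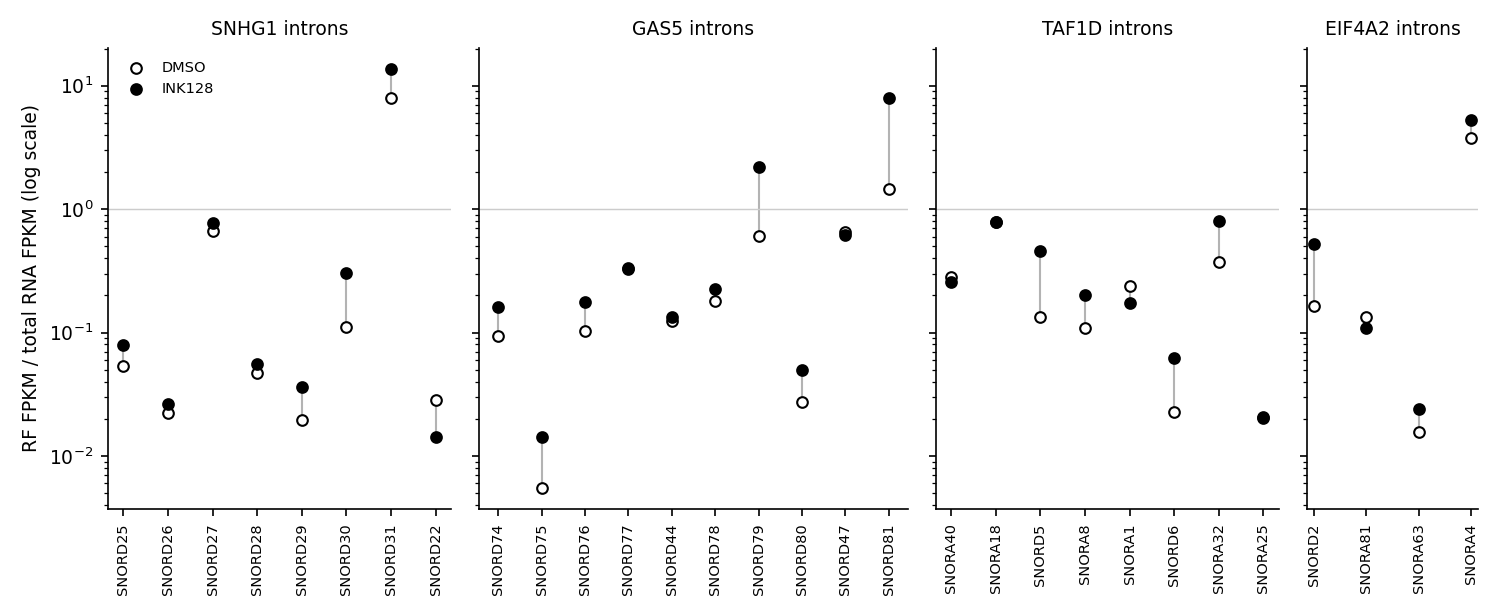
Linear ratio of RF FPKM to total RNA FPKM (log scale) for each snoRNA in the introns of SNHG1, GAS5, TAF1D and EIF4A2, in order along the host transcript, with DMSO as open and INK128 as filled circles. Within each host the ratio differs between RNAs by far more than it differs between treatments, with SNORD31 at 7.99 and 13.7 and its neighbour SNORD30 at 0.11 and 0.31.

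In RF the median change of the small RNAs lay above that of all genes and the median of their hosts below it. A single host with its own row was found for 213 RNAs, in 124 hosts. In total RNA the median change was 0.14 for these RNAs and -0.76 for the hosts, each counted once, or -1.23 for the hosts without the pseudocount, and 207 of the 213 lay above their host. In RF the medians were 0.75 and -0.17, and 190 of the 213 lay above their host. Scaled to the summed FPKM of the genes outside the 260, the host median in RF was 0.04, beside 0.23 for all genes. As deposited, in 149 pairs the RNA was higher and the host lower, in 12 the reverse, in 29 both were higher and in 23 both were lower. Across the 213 pairs the change of RNA and host had a Spearman rho of 0.01 in total RNA and -0.16 in RF, a description over RNAs that often share a host.

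Of the 12 hosts with 4 or more listed RNAs, all 12 were lower in RF with INK128, by -0.23 to -1.73, and in all 12 the median of their RNAs was higher, by 0.53 to 1.04. Scaled to the genes outside the 260, 11 of the 12 hosts were lower and EIF4A2 was at 0.02. RPL23A fell from 949 to 371 FPKM in RF, a change of -1.35, while its 4 snoRNAs changed by 0.43 to 2.78. RPL7A fell from 2482 to 1036 FPKM, while its 4 RNAs were higher, by 0.55 to 1.45. GAS5 fell from 117 to 34.5 FPKM, a change of -1.73, while its 10 snoRNAs changed by 0.38 to 1.95. EIF4A2 was at 93.0 and 79.1 FPKM, with its 4 RNAs between -0.17 and 1.65.

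The mRNAs of the proteins that carry these RNAs differed little in RF. All 4 C/D box core proteins were lower, with FBL (fibrillarin) at 229 and 177 FPKM, NOP56 at 49.5 and 41.0, and a list median of -0.22. All 4 H/ACA proteins were lower too, by at most 0.15, with DKC1 (dyskerin) at 37.6 and 35.1 FPKM. Of 10 assembly factors 8 were lower, with a median of -0.13, of 25 listed Sm and snRNP proteins 16 were lower, with a median of -0.06, and of 7 listed members of the SMN complex, which loads Sm rings onto snRNAs, all 7 were lower, with a median of -0.14. None of these 50 genes was 2-fold changed in RF, and the median over all genes was 0.02. Of the 50, 39 were lower in RF, where 45.9% of all genes were. These directions depend on the scaling, since 8 of the 50 were lower when scaled to the genes outside the 260, where 1302 of the 10843 genes were. The largest value in the sum behind that scaling was a single Y RNA, RNY5, and the scaling was not recomputed without it.

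In total RNA the same protein genes followed the other mRNAs. Of the 29 that passed the filter, 29 were lower with INK128, where 91.1% of all genes were, with list medians from -0.77 to -1.07 beside -0.73 for all genes. FBL was at 10.9 and 4.37 FPKM and SNRPB, a core Sm protein, at 19.9 and 8.50. Of the 29, 7 were 2-fold or more lower (24.1%), where 15.2% of all genes were. Without the pseudocount these were 27 of the 29 and 71.5% of all genes.

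Other small RNAs without coding sequence also moved in RF. VTRNA1-1, a vault RNA, rose from 23945 to 52766 FPKM, a change of 1.14, and RNY4, a Y RNA, from 395770 to 819687 FPKM, a change of 1.05, against 91971 and 99607 FPKM and 195579 and 99009 FPKM in total RNA. RNY5, another Y RNA, chosen after its values were seen, went from 1820000 to 972040 FPKM, a change of -0.90. RMRP, TERC and RPPH1 were at 0.40, 0.35 and 0.27. Of 81 microRNA genes that passed in RF, 14 were 2-fold or more higher and 12 lower, with a median of 0.01, where 1.05% and 1.37% of all genes were. The microRNA genes thus had a median near that of all genes, with calls in both directions.

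The second table of the series, from the Silvestrol experiment, shows what other libraries of the same line held. It lists 216 of the 260 symbols. In its 2 poly(A)-selected mRNA libraries 208 had reads with DMSO and 207 with 25 nM Silvestrol, with 4947 and 2143 reads for SNORD79, the most-read. In its 7 RF libraries between 0 and 7 of the 216 had any read, and the RPKM field was blank for 215, so this table had no RF measurement for them and its zeros are not evidence of absence. Poly(A) selected and total RNA reads of these RNAs were only loosely related, with a Spearman rho of 0.24 over 216 RNAs, and the 2 tables were made by different counting.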

How the data were processed

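Libraries were made from MDA-MB-231 cells, 1 per group. Per the labels, CASAVA 1.8.1 and Bowtie2 were used on hg19. The INK128 table deposited by the authors holds FPKM per gene with a locus, an Entrez ID and a status field. The program that made it is not given in the sources used here. For the Silvestrol table the authors deposited read counts and RPKM per transcript, after removing rRNA and mapping to UCSC KnownGene transcripts with Bowtie. Only the counts were used, repeated lines being dropped.

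The members and lists were chosen with earlier results of these data known. Where a symbol had several lines, the one with the highest mean FPKM was kept, so 13121 genes remained of 13163 lines. Changes were log2((INK128 FPKM + 1)/(DMSO FPKM + 1)), with a mean of at least 1 FPKM in the libraries compared, counted past 2-fold. There is 1 library per group, so no test was made. Reads were recovered for 251 genes as FPKM times the sum, over fragment lengths of 23 nt and up, of a normal density (mean 200, SD 80) times the number of positions, divided by a constant found for each library. A smallest fragment of 22 or 24 nt gave 32.2% or 30.1% whole values in RF with DMSO. On simulated data made with the same formula the step was found again, which does not test the formula. Counting intervals of a fold were exact (Clopper-Pearson, 95%). Hosts and strands came from GENCODE 44 lifted to GRCh37. A strand was given by a small RNA of the same name for 201 genes, by the overlapping gene for 47 and by a gene model at the locus for 2. Named genes were all RNU genes, the 5 with the highest mean total RNA FPKM in each other class, the 5 largest rises and falls in total RNA and in RF, and those of the fixed lists. RNAs and hosts described for their RF to total RNA ratio, host or read count were chosen after their values were seen. Python 3.11.15 with pandas 2.3.3 and scipy 1.17.1 was used.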

Additional observations from a re-analysis of the deposited data

How the results depend on the processing

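No paired analysis was possible because each group of the INK128 experiment has 1 library, and for the same reason no library could be left out. Of 84 values recomputed for the medians and counts over the small RNA genes, 62 stayed within the interval of the median or within 1.5 times the count. That interval was taken over genes, which are not replicates of a condition. No median changed its sign, and a count has no direction to turn. Centred on the median of all genes, the median change in total RNA moved from 0.14 to 0.87, with 38 genes 2-fold or more higher and 0 lower. With FPKM divided by the sum over all genes outside the 260, the RF median moved from 0.64 to 0.89, with 117 genes 2-fold or more higher in place of 73, and the all-gene median in RF from 0.02 to 0.23. The Y RNA RNY5 was the largest value in that RF sum, and the scaling was not recomputed without it. At 1.5-fold, 139 were higher and 18 lower in RF and 2 higher and 4 lower in total RNA. At 4-fold these were 8 and 3, and 0 and 0. With a pseudocount of 0.1 or none, 2 genes were 2-fold lower in total RNA. Alternatives chosen after seeing the data were centring without a pseudocount, which moved the median in total RNA to 1.29, with 228 genes 2-fold or more higher and 0 lower, the 251 genes with recovered reads, where 0 were 2-fold lower in total RNA, the genes with at least 20 RF reads, where 63 were higher and 1 lower in RF, counting intervals past 2-fold, which gave 32 higher and 0 lower, and RNU5D-1 and RNU5E-1 summed, which left the RF median at 0.65. Low RF depth limits 37 of 251 RNAs, which had under 20 reads with DMSO.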
